A study of Mus musculus with 20 samples.

Results

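The 8 genes described here are the metallothioneins Mt1 and Mt2 and 6 transporters of zinc or manganese, namely the importers Slc39a4, Slc39a5, Slc39a8, and Slc39a14 and the exporters Slc30a1 and Slc30a10. They were chosen by symbol, through the Ensembl identifiers of the count table and the GENCODE names, and all 8 were found among its 19887 genes. All 8 also had enough counts to be among the 15348 genes tested. RNA was taken from sections of the cecum of 20 C57BL/6 mice, 1 library per mouse and 5 mice per diet. All mice had eaten the Total Western Diet (TWD), a rodent diet made to resemble American nutrient intake, for 6 weeks from 3 weeks of age. They then received the TWD with 0, 2, 5, or 10% raw potato starch (RPS) for another 3 weeks, so that the mice fed with 0% RPS are the controls and share the TWD with the others. RPS is uncooked starch that largely escapes digestion in the small intestine and reaches the cecum, where bacteria ferment it. The comparisons ask whether the level of RPS in this diet altered the expression of genes that handle zinc in the cecum.

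Metallothioneins are small, cysteine-rich cytosolic proteins that bind zinc and copper, and their mRNA rises when free zinc in the cell rises. The metal-responsive transcription factor Mtf1 senses that zinc and binds short metal response elements in the promoters of Mt1, Mt2, and Slc30a1. Glucocorticoids, oxidative stress, and inflammatory cytokines also raise metallothionein mRNA in many tissues. The ZIP (Slc39) proteins bring zinc into the cytosol, whereas the ZnT (Slc30) proteins carry it out of the cytosol. Several members of both families also move manganese or iron.

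Mt1 (ENSMUSG00000031765) lies at chr8:94905710-94906955 and Mt2 (ENSMUSG00000031762) at chr8:94898819-94900207, both on the plus strand of GRCm39. The 5502 bases between them hold the Mt1 stretch printed below, which need not be the whole Mt1 promoter. Parts of promoter windows are printed here because Mt1 and Mt2 were the 2 genes of the set with the largest differences between diets. Slc30a10 is added because it varied against Mt1 from mouse to mouse. Each stretch is the part of the RefSeq promoter window (GRCm38.p6 table, 250 bases before the RefSeq start and 50 after it) that ends where the gene's GENCODE exon begins, read from the plus strand. For Mt2 that is the first exon of most transcripts, and the stretch lies in an intron of 2 of its 10 GENCODE transcripts, which start further upstream. GENCODE also places exons of other genes over parts of these stretches, of Gm63980 for Mt1 and of the antisense lncRNA Gm45774 for Mt2. Each was located by an exact match, which occurred once in GRCm39. Capitals mark the core of the metal response element, TGCACNC or TGCGCNC on either strand.

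Mt1, chr8:94905467-94905709: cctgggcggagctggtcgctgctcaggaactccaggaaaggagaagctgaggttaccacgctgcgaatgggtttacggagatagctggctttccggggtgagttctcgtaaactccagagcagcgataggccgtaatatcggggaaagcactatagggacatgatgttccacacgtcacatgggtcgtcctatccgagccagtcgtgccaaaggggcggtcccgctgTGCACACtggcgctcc
Mt2, chr8:94898996-94899131: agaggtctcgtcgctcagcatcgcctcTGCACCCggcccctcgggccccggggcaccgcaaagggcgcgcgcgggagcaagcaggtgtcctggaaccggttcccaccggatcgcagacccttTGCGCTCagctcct
Slc30a10, chr1:185186795-185186972: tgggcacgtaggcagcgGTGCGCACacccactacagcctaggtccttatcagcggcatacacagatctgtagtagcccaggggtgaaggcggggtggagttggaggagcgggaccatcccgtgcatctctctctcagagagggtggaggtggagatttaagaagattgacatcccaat

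Over the whole 300-base window, Mt2 held 4 of these cores, Mt1 and Slc30a10 held 3 each, and Slc30a1 held 2. Of the 3 Mt1 cores, 1 lay before the RefSeq start and 2 after it, past the end of the printed stretch. Bases beyond the windows were not searched. The capitals in Slc30a10 cover 2 cores that overlap on opposite strands. Slc39a5 and Slc39a8 each have 2 RefSeq windows, of which 1 held a single core and the other none. At least 1 core was found in 25.7% of the 32851 promoter windows of the table, at least 2 in 7.1%, and at least 3 in 1.97%. A match of letters does not show that Mtf1 binds there. Slc39a4 and Slc39a14 had no entry in the table.

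The cecum libraries had total counts of 14967798 to 42687283, and a floor of 3 counts was at most 0.20 CPM (counts scaled to the size of the library), which covers counting error only. Among the 8 genes, the lowest count in any mouse was 184, for Mt2. Markers of epithelium, pancreas, and ileum were read, which do not separate cecum from colon. The 8 epithelial markers (Epcam, keratins, Vil1, Cdh1, and Cldn7) summed to 10900 to 17400 CPM per mouse. Of 5 listed pancreatic genes, only Ctrb1 and Prss2 were in the count table, with at most 3 counts in any mouse. Of the ileal markers, Defa24 and Lct had at most 10 counts and Fabp6 had 6 to 49, whereas the bile acid transporter Slc10a2 was at 111 CPM on average.

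Per kilobase of transcript, which allows genes to be compared, Slc39a4 was by far the most abundant of the set. Its level was 292 ± 39.2 CPM per kb (SD, n = 20 mice), and its lowest mouse (203) was above the highest mouse of any other ZIP or ZnT gene or metallothionein. Slc39a4 encodes the apical zinc importer of the intestine, whose loss causes the zinc deficiency disease acrodermatitis enteropathica. It was followed by Mt1 (46.7 ± 16.6), Slc30a10 (31.0 ± 10.9), Slc30a1 (24.01 ± 5.78), and Mt2 (22.8 ± 12.5). The lowest levels were those of Slc39a14 (10.97 ± 1.62), Slc39a5 (9.90 ± 1.02), and Slc39a8 (6.91 ± 0.97). Of neighbors in this order, only Slc39a4 and Mt1, and Slc39a5 and Slc39a8, had means further apart than the SD of either. The ubiquitous importers Slc39a7 (50.2) and Slc39a1 (48.9), neither of which is in the set, were at levels close to that of Mt1. Of the other metallothioneins, the neuronal Mt3 was at 2.56 CPM per kb, and Mt4, of stratified epithelia, was below the filter with 1 to 15 counts per mouse.

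**Figure D1:**
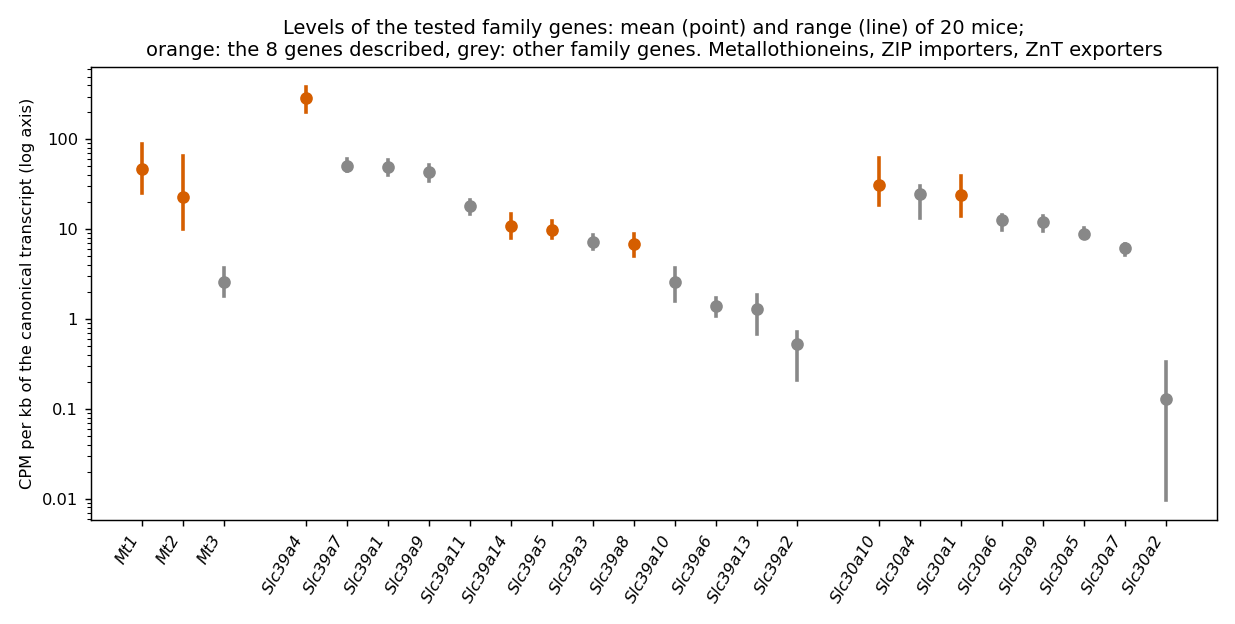
Mean (point) and range over 20 mice (line) of CPM per kb of the canonical transcript, on a log axis, for each tested metallothionein, ZIP importer, and ZnT exporter. The 8 genes described are in orange and the other family genes in grey, and the whole range of Slc39a4 (203 to 381) lies above every other gene.

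Mt1 was lower with 10% RPS than with 0% RPS, and in edgeR it was the only gene of the set that passed both the adjusted p and the fold threshold in any comparison run here. In DESeq2, the tool of the study, Mt2 passed both as well with 10% RPS. The 5 mice fed with 0% RPS had 67.9, 38.4, 38.6, 43.0, and 61.3 CPM of Mt1 (scaled by TMM). The 5 mice fed with 10% RPS had 25.7, 22.7, 19.5, 36.3, and 23.0 CPM. Every mouse on 10% RPS was thus below every mouse on 0% RPS, although mouse 4 on 10% RPS (36.3) was close to the lowest control (38.4). The means of Mt1 were 49.9 ± 13.8 and 25.4 ± 6.46 CPM (SD, 5 mice per diet). The log2 fold change was -0.97 (SE 0.21, 95% interval -1.42 to -0.53, edgeR quasi-likelihood test, adjusted p = 0.0276). This was a 1.96-fold lower level. The two-sided exact permutation p was 0.00794, the smallest that 5 mice against 5 can give. In bulk tissue, fewer cells of a type and less RNA per cell cannot be told apart.

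Mt2 had the lowest estimate of the set but more spread, and it did not pass the adjusted threshold. Mice on 0% RPS had 48.4, 17.6, 18.6, 23.9, and 18.4 CPM of Mt2, and mice on 10% RPS had 12.4, 8.08, 7.84, 17.4, and 8.48 CPM. The groups again did not overlap, but the highest mouse on 10% RPS and the lowest control were 17.4 and 17.6 CPM. The log2 fold change was -1.23 (SE 0.37, 95% interval -2.01 to -0.45, p = 0.00373, adjusted p = 0.084 by edgeR), and the exact permutation p was 0.00794. Mouse 1 on 0% RPS, at 48.4 CPM, was far above the next control at 23.9 CPM. Without it the log2 fold change of Mt2 was -0.86 (adjusted p = 0.203). DESeq2's Wald test on all mice gave an adjusted p of 0.0131 for Mt2. GENCODE places exons of the antisense lncRNA Gm45774 over 82.4% of the Mt2 exon bases. This lncRNA has no row in the count table, and since the strand setting of the counting is not given, its reads and those of Mt2 cannot be told apart. Among the other 7 genes, the largest overlap with any single antisense gene was 12.7% of exon bases, in Slc39a4.

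Of all 15348 genes, 0.495% were called lower and 0.547% higher with 10% RPS at an adjusted p of at most 0.05 and a fold change of at least 1.5. Of the set, Mt1 was called lower (1 of 8) and none was called higher. With no fold threshold, 1.14% of all genes were lower and 0.717% higher, against Mt1 lower and Slc39a14 higher in the set. In 3.2% of all genes every mouse on 10% RPS was below every mouse on 0% RPS, and in 1.68% every mouse was above. In the set this held for 3 of 8 genes (Mt1, Mt2, and Slc39a5), all lower. The median log2 fold change of the 8 genes was -0.06, and that of all tested genes was 0.00.

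The call of Mt1 rested on most of the mice compared. Over the 20 fits that each leave out 1 mouse, the log2 fold change stayed between -1.13 and -0.84, and the adjusted p was between 0.00924 and 0.101. It was above 0.05 without mouse 1, 4, or 5 on 0% RPS and without mouse 1, 2, 3, or 5 on 10% RPS. Mouse 4 on 10% RPS had the highest Mt1 and Mt2 of its diet. Without this mouse the log2 fold changes of Mt1 and Mt2 were -1.13 (adjusted p = 0.00924) and -1.46 (adjusted p = 0.0451), and both genes were called. The call of Mt1 was also lost when the epithelial markers were a covariate (-0.75, adjusted p = 0.158) and when only the mice of these 2 diets were fitted (-0.97, adjusted p = 0.0554).

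**Figure D2:**
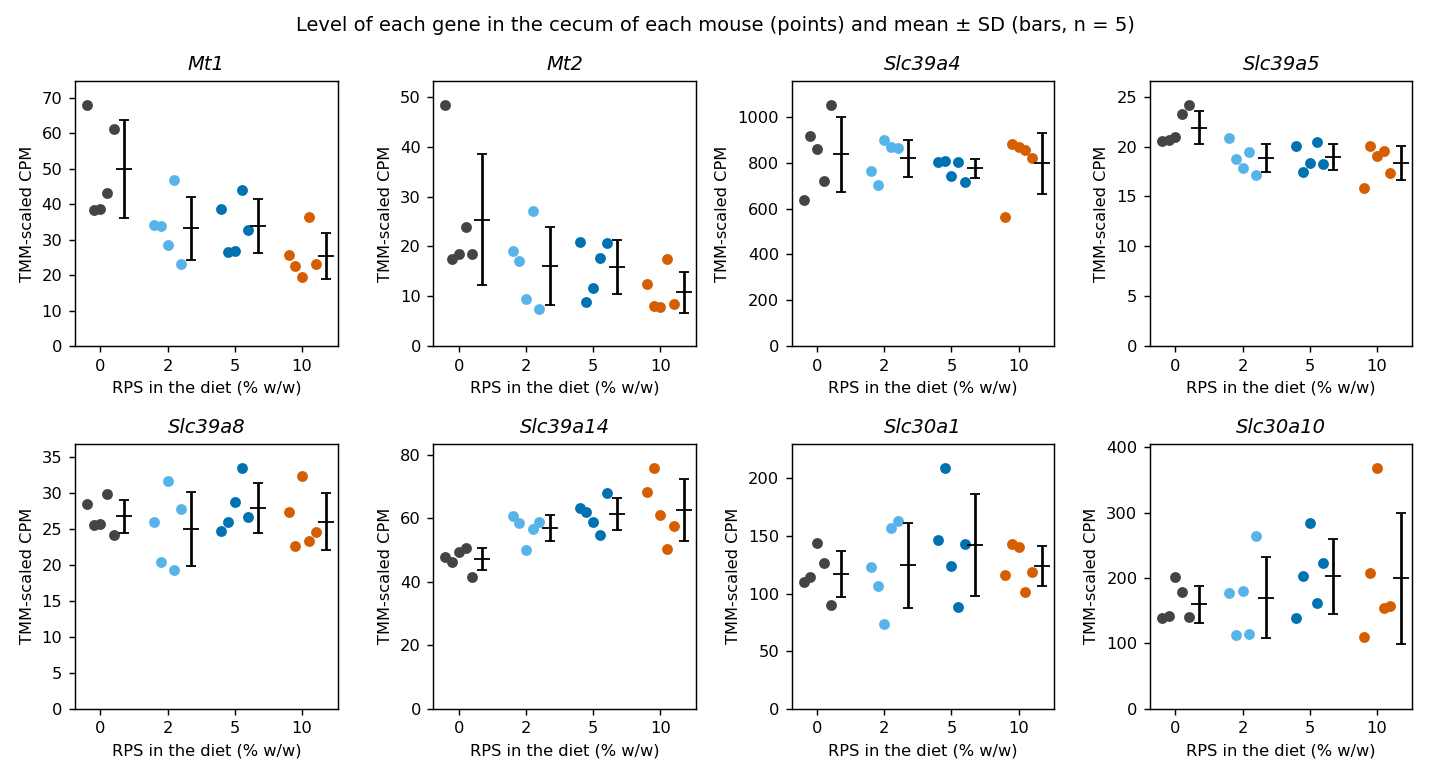
Level of each of the 8 genes in TMM-scaled CPM (y axis) against the percentage of RPS in the diet (x axis), with 1 point per mouse and bars for mean ± SD (n = 5). All Mt1, Mt2, and Slc39a5 points of the 10% RPS diet lie below all those of the 0% RPS diet, Slc39a14 points lie higher with each RPS diet except for overlapping mice, and the other 4 genes overlap between diets.

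The means at the lower doses lay between these extremes, and each comparison with 0% RPS used the same 5 controls. Mt1 was 33.2 ± 8.86 CPM with 2% RPS (34.2, 33.7, 28.4, 46.8, and 23.0 CPM) and 33.7 ± 7.57 CPM with 5% RPS (38.6, 26.6, 26.9, 44.1, and 32.6 CPM). Both ranges overlapped the controls. The log2 fold changes against 0% RPS were -0.59 with 2% RPS (95% interval -1.03 to -0.15, adjusted p = 0.815) and -0.56 with 5% RPS (-1.001 to -0.12, adjusted p = 0.228). Mt2 was 16.1 ± 7.91 CPM with 2% RPS (19.1, 17.2, 9.47, 27.1, and 7.47 CPM) and 15.95 ± 5.42 CPM with 5% RPS (20.8, 8.87, 11.7, 17.7, and 20.7 CPM). Its log2 fold changes were -0.66 with 2% RPS and -0.67 with 5% RPS, and the 95% intervals (-1.43 to 0.10 and -1.44 to 0.10) held 0. Without mouse 1 on 0% RPS these estimates were -0.29 and -0.30. Both metallothioneins therefore had nearly equal means at 2 and 5% RPS and a further difference at 10% RPS, but the step from 5 to 10% RPS did not pass a test. In edgeR this step was -0.41 for Mt1 (95% interval -0.86 to 0.03, adjusted p = 1.0) and for Mt2 -0.56 (-1.34 to 0.21).

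With the percentage of RPS fitted as a line over all 20 mice, Mt1 fell by 0.085 on the log2 scale for each 1% of RPS (SE 0.021, adjusted p = 0.0492), which is 5.7% per 1% of RPS. Over all genes the same test called 0.73% lower and 0.378% higher. The slope of Mt2 was -0.109 (SE 0.034, adjusted p = 0.103), that of Slc39a14 was 0.036 (SE 0.010, adjusted p = 0.0686), and that of Slc39a5 was -0.020 (adjusted p = 0.199). In DESeq2 the slopes of Mt2 (adjusted p = 0.047) and Slc39a14 (adjusted p = 0.0235) passed too, and with dose ranks in edgeR that of Slc39a14 did (adjusted p = 0.0216). The Mt1 slope did not pass with DESeq2's size factors, upper quartile scaling, no filter, or the epithelial covariate (adjusted p of 0.0503, 0.0598, 0.06, and 0.378). The Mt1 slope was so close to the threshold that it passed in only 5 of the 20 fits with 1 mouse left out, namely without mouse 2 on 0% RPS, mouse 3 or 5 on 2% RPS, mouse 4 on 5% RPS, or mouse 4 on 10% RPS. Its range over the 20 fits was -0.100 to -0.072, with adjusted p of 0.0153 to 0.153.

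**Figure D3:**
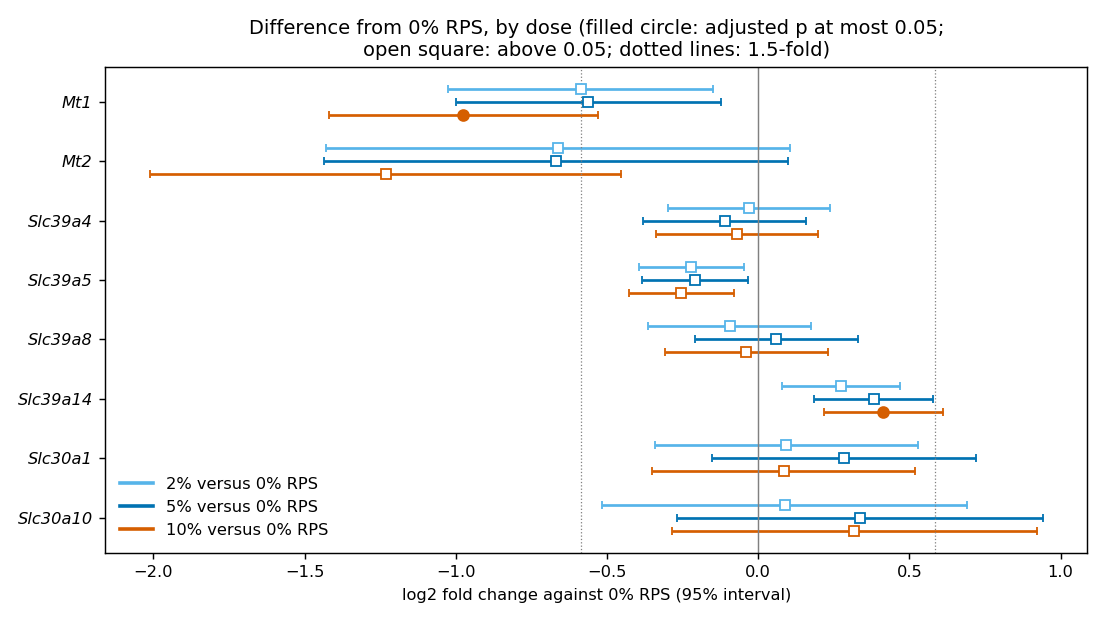
The log2 fold change against 0% RPS (x axis) of each gene, with its 95% interval, for the 2, 5, and 10% RPS diets, all of which share the 5 control mice. Filled circles mark an adjusted p of at most 0.05 (Mt1 and Slc39a14 with 10% RPS), open squares mark all others, and dotted lines mark a 1.5-fold change.

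Slc39a14 was the gene of the set that was higher with RPS. It encodes an importer of zinc, manganese, and iron on the basolateral side of enterocytes, and in the liver it is induced by interleukin 6. Mice on 0% RPS had 47.8, 46.4, 49.3, 50.6, and 41.6 CPM of Slc39a14, and mice on 10% RPS had 68.4, 75.9, 61.2, 50.3, and 57.7 CPM. Only mouse 4 on 10% RPS (50.3) fell within the range of the controls. The log2 fold change was 0.41 (SE 0.094, 95% interval 0.22 to 0.61, adjusted p = 0.0316 by edgeR, exact permutation p = 0.0159), a 1.33-fold higher level that was below the 1.5-fold threshold. With only the mice of these 2 diets in the fit it was 0.42 (adjusted p = 0.0682), and with the epithelial covariate it was 0.43 (adjusted p = 0.13). Means were 57.0 ± 4.12 CPM with 2% RPS (60.7, 58.6, 50.1, 56.7, and 58.8 CPM) and 61.4 ± 4.95 CPM with 5% RPS (63.2, 62.0, 58.8, 54.8, and 68.1 CPM). All mice on 5% RPS, and all but mouse 3 on 2% RPS, were above all 5 controls. The log2 fold changes were 0.27 with 2% RPS (95% interval 0.08 to 0.47, edgeR adjusted p = 0.815) and 0.38 with 5% RPS (0.19 to 0.58, adjusted p = 0.0757). The estimate at 2% RPS was thus the larger part of that at 10% RPS, and the difference between 10 and 5% RPS was 0.03 (-0.16 to 0.23). With 1 mouse left out, the 10% RPS estimate was 0.33 to 0.49, and its adjusted p was above 0.05 (at most 0.0963) without mouse 1, 3, 4, or 5 on 0% RPS or mouse 1, 2, or 3 on 10% RPS.

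Slc39a5, a basolateral zinc importer of intestine and pancreas, had means below the control mean with each RPS diet but passed the adjusted threshold in none. Mice on 0% RPS had 20.5, 20.7, 21.0, 23.2, and 24.2 CPM of Slc39a5, and mice on 10% RPS had 15.9, 20.03, 19.1, 19.6, and 17.3 CPM. The groups did not overlap, though the nearest mice were 20.03 and 20.5 CPM. The log2 fold change was -0.25 (SE 0.083, 95% interval -0.43 to -0.08, p = 0.00631), a level lower by a factor of 1.19, and it failed the adjusted threshold (adjusted p = 0.108 by edgeR, exact permutation p = 0.00794). The means were 18.8 ± 1.40 CPM with 2% RPS and 19.0 ± 1.28 CPM with 5% RPS, with 1 mouse of 5 on 2% RPS (20.8) and none on 5% RPS inside the control range. Those log2 fold changes were -0.22 (adjusted p = 0.815) and -0.21 (adjusted p = 0.261) by edgeR.

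For the other 4 genes the diets could not be told apart at this spread. Slc39a4 had 636, 916, 859, 720, and 1051 CPM with 0% RPS and 562, 882, 867, 854, and 821 CPM with 10% RPS, and the ranges overlapped. Its log2 fold change of -0.07 had a 95% interval of -0.34 to 0.20, which leaves out a difference of 1.5-fold in either direction. Slc39a8, an importer of zinc and manganese, was at 26.7 ± 2.32 CPM with 0% RPS (range 24.2 to 29.9) and 26.0 ± 3.97 CPM with 10% RPS (22.6 to 32.3). Its log2 fold change was -0.04 (-0.31 to 0.23), so a 1.5-fold difference is again outside the interval.

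The exporters varied more from mouse to mouse. Slc30a1, which carries zinc out across the plasma membrane and is induced by zinc through Mtf1, was at 117 ± 19.9 CPM with 0% RPS (110, 114, 144, 126, and 90.0 CPM) and 124 ± 17.3 CPM with 10% RPS (116, 143, 140, 102, and 119 CPM). The groups overlapped, and the log2 fold change was 0.08 (95% interval -0.35 to 0.52, adjusted p = 0.867). With 5% RPS it ranged from 88.2 to 209 CPM. Slc30a10, which exports manganese at the apical side of hepatocytes and enterocytes, was at 160 ± 28.3 CPM with 0% RPS (138, 143, 201, 178, and 140 CPM) and 200 ± 100.6 CPM with 10% RPS (110, 207, 369, 155, and 157 CPM). Mouse 3 on 10% RPS, at 369 CPM, was the highest of all 20 mice, and without it the log2 fold change of 0.32 (95% interval -0.29 to 0.92) became -0.02. A 1.5-fold higher level of Slc30a10 lay within its interval.

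In the comparisons of 5 and 2% RPS with 0% RPS, and of 5 with 2% and 10 with 5% RPS, no gene of the set passed the adjusted threshold in edgeR. The 10 and 2% RPS diets were not compared with each other. With 5% RPS 0.254% of all genes passed it, and of the set 3 of 8 (Mt1, Slc39a5, and Slc39a14) had an unadjusted p under 0.05, as did the same 3 genes with 2% RPS. Of all 15348 genes, 2038 did so with 5% RPS and 886 with 2% RPS. DESeq2 gave an adjusted p of 0.0149 to Slc39a14 with 5% RPS, at a fold change below 1.5, and called none of the set with 2% RPS. With 2 against 0% RPS, 5 against 2% RPS, and 10 against 5% RPS, 0.0% of all genes passed in edgeR (886, 520, and 428 had an unadjusted p under 0.05). In the last 2 of these comparisons none of the 8 genes had an unadjusted p under 0.05, and DESeq2 called none. A test of any difference among the 4 diets called 0.0912% of all genes and none of the set by edgeR (lowest adjusted p 0.115, for Slc39a14). There, 4 of the 8 and 1699 of all 15348 genes had an unadjusted p under 0.05, and DESeq2 called 2 of the 8 and 473 of all genes.

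Mt1 and Mt2 varied together from mouse to mouse. Over all 20 mice Pearson's r of log2 CPM was 0.897 and Spearman's rho 0.872 (permutation p = 1e-05 for both, the smallest that the permutations can give, adjusted over 28 pairs p = 0.00028). Without the 2 mice farthest from the median of Mt1, r was 0.927. After the mean of each diet was subtracted, r was 0.837 and rho 0.847 (permutation within diets, adjusted p = 0.00084 for both), and r was 0.776 without the 2 farthest mice. The relation of Mt1 and Mt2 therefore held within diets as well. The genes are neighbors with similar sequences, but no stretch of 50 bases, the read length, was identical between GENCODE transcripts of any of the 8 genes and those of another gene of the 3 families. Reads with mismatches could still be shared, and how reads with several hits were counted is not given.

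Among the 28 pairs, 3 passed the adjusted threshold of Pearson's r over all mice and 3 within diets, and only Mt1 and Mt2 passed both ways. Over all mice Mt1 was also related to Slc39a5 (r = 0.695, rho = 0.720, adjusted p = 0.0099 for r) and to Slc39a14 (r = -0.666, rho = -0.669, adjusted p = 0.013 for r). Within diets these relations did not pass (r = 0.428, adjusted p = 0.34, and r = -0.34, adjusted p = 0.43), and without the 2 farthest mice the pooled r values were 0.635 and -0.504. Within diets Mt1 was inversely related to Slc30a10 (r = -0.674, rho = -0.729, permutation adjusted p = 0.025 and 0.013), and r was -0.651 without the 2 farthest mice. Over all mice that pair had r = -0.561 (adjusted p = 0.056). Slc39a14 and Slc30a1 were related within diets by r (0.595, adjusted p = 0.024, 0.619 without the 2 farthest mice) but not by rho (0.567, adjusted p = 0.1).

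**Figure D4:**
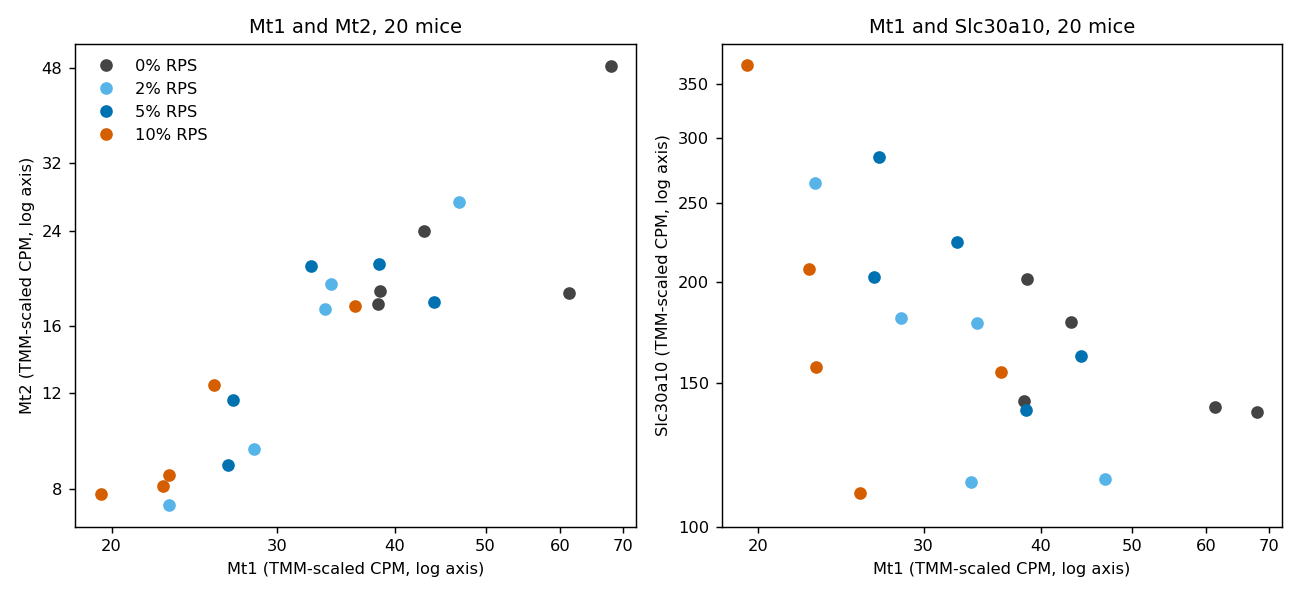
Mt2 (left) and Slc30a10 (right) against Mt1 in each of the 20 mice, in TMM-scaled CPM on log axes, with colors for the 4 diets. Mt2 is mostly higher in mice with higher Mt1 (r = 0.897), whereas Slc30a10 tends to be lower (r = -0.561).

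The tested genes outside the set whose log2 CPM was most like that of Mt1 over the 20 mice were Map3k6, a stress-activated kinase (r = 0.894), Sfn, the epithelial 14-3-3 sigma protein (0.877), Zg16, a lectin secreted by goblet cells (0.869), Sdc1, a cell surface proteoglycan (0.868), and Rin1, a Ras effector (0.866). These are the highest correlations among all tested genes and carry no test. Since Mt1 differs between diets, genes chosen for likeness to it over all mice will tend to differ too. Of these 5, Sfn, Zg16, Sdc1, and Rin1 had adjusted p values of at most 0.05 with 10% RPS (log2 fold changes of -1.02, -0.84, -0.55, and -0.61, adjusted p of 0.0289, 0.0251, 0.0376, and 0.0479). For Mt2 they were Lratd1 (0.805), the secretory pathway cargo receptor Surf4 (0.793), Plek2 (0.790), Map3k6 (0.789), and the glycosyltransferase B3gnt7 (0.781). Slc39a14 was most like Dync1li2, a dynein subunit (0.913), and Slc26a3, the chloride and bicarbonate exchanger of surface colonocytes (0.909). Slc26a3 was higher with 10% RPS (log2 fold change 0.61, edgeR adjusted p = 0.0487), though it too was chosen for likeness to a gene that differed between diets. It is 1 of 6 absorptive colonocyte markers, and the carbonic anhydrase Car1 (-0.43, adjusted p = 0.0956) and the water channel Aqp8 (-0.58, adjusted p = 0.114) had estimates below 0 and passed in DESeq2.

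For the other genes the likest were Hic2 (0.853) and Ostf1 (0.785) with Slc39a4, Rab25 (0.854) and Atp5po (0.854) with Slc39a5, and Alg12 (0.767) and Ube2l6 (0.760) with Slc39a8. Riok3 (0.873) and Zfp974 (0.863) were most like Slc30a1, and the MHC class I gene H2-T23 (0.777) and Rnf130 (0.766) were most like Slc30a10. Of these, only the genes most like Slc39a5 passed the adjusted threshold with 10% RPS. Slc39a5 was lower in every mouse on 10% RPS than in every control, so genes chosen for likeness to it will tend to differ too. Rab25, an epithelial trafficking GTPase, had a log2 fold change of -0.31 (adjusted p = 0.0477) and Atp5po, a subunit of mitochondrial ATP synthase, one of -0.36 (adjusted p = 0.0267).

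Other genes of zinc and manganese handling gave few differences with 10% RPS. None of the other 9 tested ZIP importers, 6 ZnT exporters, and 1 metallothionein passed the adjusted threshold in edgeR. At an unadjusted p under 0.05, 2 of the importers had estimates above 0 and Mt3 had one below 0, and DESeq2 passed Slc39a13. Of all 15348 genes, 1495 were above 0 and 1497 below 0 at that p. Slc39a13, a zinc transporter of the secretory pathway in connective tissue cells, had a log2 fold change of 0.74 (SE 0.22, adjusted p = 0.0737), and Slc39a10 had 0.35 (adjusted p = 0.24). Mt3 had -0.42 (SE 0.20, adjusted p = 0.252). The lowest p values of the exporters were those of Slc30a6 (-0.14, adjusted p = 0.427) and Slc30a5 (-0.10, adjusted p = 0.481).

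Of 10 genes of metal sensing and of manganese or divalent metal transport, none passed in edgeR, and the 2 with an unadjusted p under 0.05, a share close to that of all genes, passed in DESeq2. These were Atp2c2, a calcium and manganese pump of the Golgi (-0.55, SE 0.15, adjusted p = 0.0586), and Slc11a2, the apical iron importer (0.33, SE 0.10, adjusted p = 0.0913). Mtf1 itself was at 30.1 CPM, with a log2 fold change of 0.08 (SE 0.098, adjusted p = 0.689). The calgranulins S100a8 and S100a9, which bind zinc in neutrophils, were below the filter, with at most 12 counts in any mouse.

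**Figure D5:**
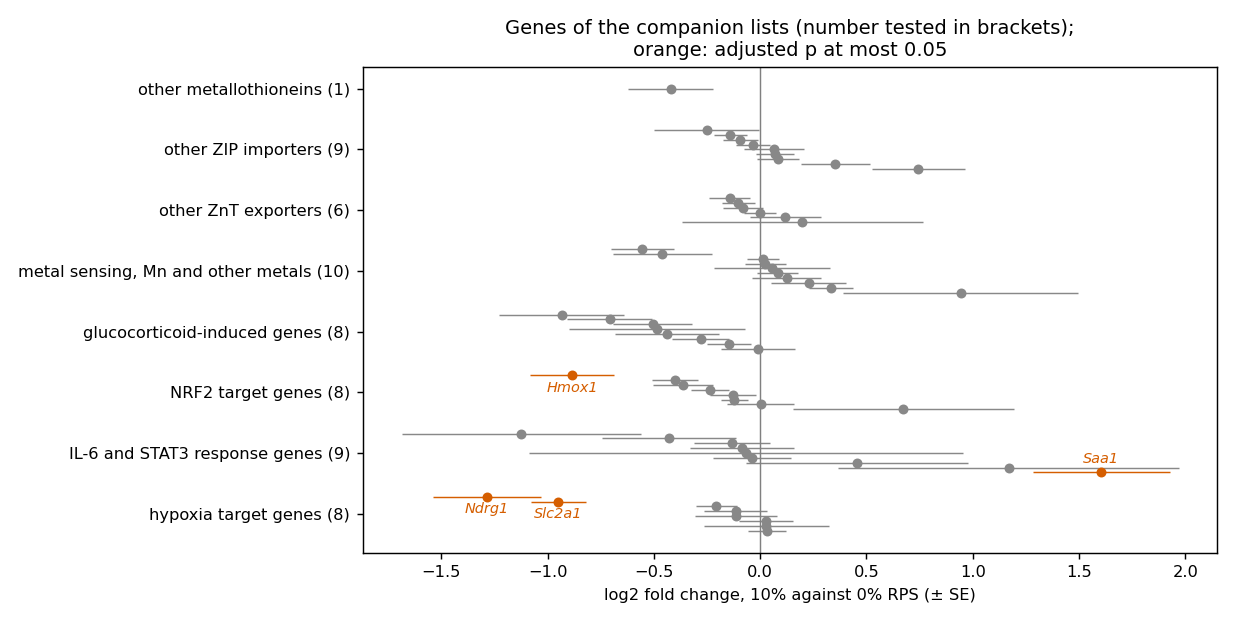
The log2 fold change of 10 against 0% RPS (x axis, ± SE) for each tested gene of 8 lists, with the number tested in brackets. Hmox1, Ndrg1, and Slc2a1 lie to the left of 0 and Saa1 to the right with an adjusted p of at most 0.05 (orange), and all other genes (grey) were above it.

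Genes known to respond to other inducers of metallothioneins were described beside them. All 8 glucocorticoid-induced genes had estimates below 0 with 10% RPS (median log2 fold change -0.46), but none passed the adjusted threshold in edgeR, 4 had an unadjusted p under 0.05, and Dusp1 and Errfi1 passed in DESeq2. Of all 15348 genes, 7540 had estimates below 0, and 1497 of these had an unadjusted p under 0.05. Errfi1, an inhibitor of the EGF receptor, fell with the percentage of RPS (slope -0.081, SE 0.019, adjusted p = 0.046). The glucocorticoid-induced chaperone Fkbp5 had -0.51 (adjusted p = 0.147), whereas Tsc22d3 had -0.01 (adjusted p = 0.984).

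Of 8 target genes of the oxidative stress factor NRF2, Hmox1, the heme oxygenase, was lower in edgeR (-0.88, SE 0.20, adjusted p = 0.0289), and Hmox1 and Srxn1 were lower in DESeq2. Srxn1, a sulfiredoxin, had -0.40 in edgeR (adjusted p = 0.0578). In edgeR 6 of the 8 estimates were below 0, 4 of them at an unadjusted p under 0.05. Over all 15348 genes these counts were 7540 and 1497. Of 9 tested genes of the interleukin 6 and STAT3 response, the acute-phase gene Saa1 was the only one to pass in edgeR or DESeq2, and it was higher (1.60, SE 0.32, adjusted p = 0.0251, and 1.62 with 5% RPS, adjusted p = 0.0426). Socs3, the feedback inhibitor of this pathway, had -1.12 (SE 0.56, adjusted p = 0.282), and Il6 was below the filter with 1 to 15 counts. Of the 9 estimates, 6 were below 0. Of 8 hypoxia targets, Ndrg1 (-1.29, SE 0.25, adjusted p = 0.0251) and the glucose transporter Slc2a1 (-0.95, SE 0.13, adjusted p = 0.00289) were lower in edgeR and DESeq2. Both also passed with 5% RPS and in the trend. The median of the 8 was -0.11, and 3 estimates were above 0. At this adjusted threshold in edgeR, 1.14% of all genes were lower and 0.717% higher with 10% RPS. With 5% RPS 0.254% passed, and in the trend 0.73% were lower.

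Summed markers of the goblet and ileal lists did not overlap between 0 and 10% RPS, those of all other lists did, and their part in the differences of Mt1, Mt2, and Slc39a14 was not tested beyond the covariate given here. None of the 8 epithelial markers passed the adjusted threshold, but all 8 estimates were below 0 (median log2 fold change -0.16), and their sum was 12500 to 16100 CPM with 0% RPS and 10900 to 15300 CPM with 10% RPS. Of 5 goblet cell markers all estimates were below 0 (median -0.54). Zg16 passed in edgeR, and Zg16 and Tff3 (-0.54, edgeR adjusted p = 0.0813) passed in DESeq2. The summed goblet CPM did not overlap between 0% RPS (8050 to 10900) and 10% RPS (6500 to 7780). The 6 absorptive colonocyte markers summed to 31300 to 35400 CPM with 0% RPS and 21800 to 35000 CPM with 10% RPS. Most of this sum was Car1, and 4 of the 6 estimates were above 0 (median log2 fold change 0.09). The smooth muscle list had a summed 2200 to 5330 CPM with 0% RPS and 3610 to 5690 CPM with 10% RPS, with all 5 estimates above 0 and Cnn1 past the threshold in DESeq2 only. Fibroblast markers summed to 391 to 548 CPM and 489 to 774 CPM, and B cell markers to 4.42 to 160 CPM and 11.6 to 207 CPM, with none past the threshold in either tool. All 4 B cell estimates were above 0 (median log2 fold change 1.87), and 4 of 5 fibroblast estimates were (median 0.40). The B cell sums were 41.7 ± 66.5 CPM with 0% RPS and 149 ± 79.0 CPM with 10% RPS (SD, 5 mice per diet). For endothelium, T cells, macrophages, neutrophils, and adipocytes no marker passed in either tool and the sums overlapped, while the ileal list, mostly Slc10a2, summed to 41.3 to 79.6 CPM and 84.8 to 170 CPM (adjusted p = 0.0641 for Slc10a2 by edgeR, which passed in DESeq2, and 0.263 for Fabp6, at -0.85). With the mean log2 CPM of the epithelial markers as a covariate, the log2 fold change was -0.75 for Mt1 (adjusted p = 0.158), -1.003 for Mt2 (adjusted p = 0.339), and 0.43 for Slc39a14 (adjusted p = 0.13). With that covariate the number of all genes called with 10% RPS was 5 instead of 160.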

How the data were processed

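RNA from sections of the cecum was sequenced as stranded poly(A) libraries with single-end reads of 50 bases. The authors trimmed the reads, used the CLC Genomics Workbench with the mouse build GRCm39, and deposited raw counts of reads per gene and mouse. The annotation release, the strand setting, and the handling of reads with several hits are not given in the sources used here, which could change counts of similar genes. Diets came from the sample labels. Mice were numbered 1 to 5 within a diet in the order of the samples. The litter and cage of each mouse are not given in the sources used here, so that no pairing or block could be fitted. Depth was 14967798 to 42687283 counts per mouse.

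Names, positions, and canonical transcript lengths came from GENCODE mouse release 39 on GRCm39 (19827 of 19887 identifiers found). The count model was edgeR 4.0.16 under R 4.3.3 (filterByExpr with a minimum count of 10 and total of 15, TMM factors of 0.916 to 1.07, robust quasi-likelihood fit of all 20 mice in 4 diets). The model was tested first on simulated data, for 10 against 0% RPS. It called 90 of 100 genes changed 4-fold, 71 of 100 changed 2-fold, and 6 unchanged genes. A call needed an adjusted p (Benjamini-Hochberg over 15348 genes) no higher than 0.05 and a fold change of at least 1.5, the thresholds of the study, which used DESeq2. The trend and the test among all diets had no fold threshold. CPM are TMM-scaled, and log2 CPM used a prior count of 2. Exact permutation tests used all 252 assignments of 10 mice, correlations used 100000 permutations, and all tests were two-sided. Promoters came from a RefSeq table (GRCm38.p6).

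The 8 genes and the companion lists were chosen with earlier results of these data known, and counts over a list are descriptions. Named genes of a list are those with an adjusted p of at most 0.05 in the comparison of 10 or 5 with 0% RPS or in the trend, or else the 2 with the lowest p with 10% RPS. Mtf1, Fkbp5, Tsc22d3, Dusp1, Srxn1, Socs3, Car1, Aqp8, Tff3, Cnn1, Fabp6, Mt4, Il6, Defa24, Lct, S100a8, S100a9, Ctrb1, Prss2, and the other family genes whose levels are given were named for their role after values were seen. Alternatives were DESeq2 1.42.0 (Wald test, and likelihood ratio test among all diets), its size factors in edgeR, upper quartile scaling, no filter on low counts, at least 10 counts in every mouse, a fit that was not robust, the epithelial covariate, a fit without the diets not compared, dose ranks in place of percentages, and 20 fits that each omit a mouse. Reads carry no molecular identifiers, so floors cover counting error only.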

Additional observations from a re-analysis of the deposited data

Results flagged for a closer look

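In groups of 5 mice, each gene's highest and lowest mouse was compared with the spread of its group, and a gap to the nearest other mouse above 0.710 of the whole range was noted. Chance gives such a gap in about 1 of 20 groups. Among the 8 genes in 4 diets it occurred in 2 groups. Mt2 in mouse 1 on 0% RPS was 48.4 CPM, whereas the other 4 controls were between 17.6 and 23.9 CPM. Slc39a4 in mouse 1 on 10% RPS was 562 CPM, whereas the other 4 mice of that diet were between 821 and 882 CPM.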

How the results depend on the processing

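The number of the 8 genes called with 10% RPS was 1 (Mt1) in the analysis as reported and under DESeq2's size factors, upper quartile scaling, no filter, a filter of 10 counts in every mouse, and the fit that was not robust. It was 2 with DESeq2 (Mt1 and Mt2), 0 with the epithelial covariate, and 0 when only the 2 diets were fitted (Mt1 -0.97, adjusted p = 0.0554), and with 1 mouse left out it was 0 to 2. In the trend the number was 1 as reported, 3 with DESeq2, 2 with dose ranks, and 0 with DESeq2's size factors (Mt1 adjusted p = 0.0503), upper quartile scaling (0.0598), no filter (0.06), or the epithelial covariate (0.378), and 0 to 3 with 1 mouse left out. For any difference among diets it was 0 as reported, 2 with DESeq2, and 0 to 1 with 1 mouse left out. The cause of these changes was not tested. Over all genes, 160 were called with 10% RPS, against 369 with DESeq2, 5 with the covariate, and 98 with only the 2 diets, and leaving out 1 mouse gave 14 (mouse 3 on 10% RPS omitted) to 344 (mouse 2 on 0% RPS omitted). With 5% RPS the numbers were 30, 241, 2, and 65, and 0 (mouse 5 on 5% RPS omitted) to 114 (mouse 1 on 5% RPS omitted), and with 2% RPS they were 0 and, with DESeq2, 5. In the trend 170 genes passed, against 710 with DESeq2, 103 with no filter, 0 with the covariate, 539 with dose ranks, and 0 (mouse 1 on 10% RPS omitted) to 674 (mouse 3 on 2% RPS omitted) with 1 mouse left out. Among all diets 14 passed, against 473 with DESeq2, 0 with the covariate, and 3 (mouse 1 on 0% RPS omitted) to 103 (mouse 4 on 10% RPS omitted) with 1 mouse left out. The shares of all genes called move with these numbers. Values of Slc39a4, Slc39a8, Slc30a1, and Slc30a10, none of which passed the threshold, changed sign. With the covariate, Slc39a8 was -0.053 with 5% RPS and its slope was -0.013. With 1 mouse left out, the ranges with 10% RPS were -0.154 to 0.038 for Slc39a4, -0.125 to 0.008 for Slc39a8, and -0.022 to 0.474 for Slc30a10. With 5% RPS Slc39a8 ranged from -0.018 to 0.106. With 2% RPS the ranges were -0.115 to 0.076 for Slc39a4, -0.019 to 0.235 for Slc30a1, and -0.124 to 0.208 for Slc30a10. The slopes were -0.013 to 0.002 for Slc39a4 and -0.007 to 0.006 for Slc39a8. No paired analysis was possible because the labels give no litter, cage, or other link between mice of different diets. Counts of the 8 genes were at least 184 in every mouse, and fits at equal depth were not run.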
